A study of Drosophila melanogaster with 9 samples.

Results

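The Wingless pathway genes described here are *wg*, *Wnt4*, *Wnt6*, *Wnt10*, *Notum*, *fz*, *fz2*, *fz3*, *nkd* and *arm*. These 10 genes were chosen by name as Wingless pathway genes, with the stage differences of these libraries already known, and were found by exact gene symbol among 13215 features listed in at least 1 of 3 deposited tables. All but *Wnt6* (9 of 10) were listed in every table, and *Wnt6* was not listed in any of them. RNA was sequenced from *Drosophila* brain tumours in 9 libraries, 3 for each of 3 stages. In every group *hs-FLP* and *act-FRT>STOP>FRT-Gal4, UAS-nlsGFP* (act-F/O) drove *UAS-NΔecd*, a constitutively active Notch, in random heat-shock clones marked with GFP in the larval central nervous system. The first group, N-FACS, held GFP-positive cells sorted from brains of the third larval instar 4 days after clone induction, with 150 brains pooled per replicate. N-T0 was the first allograft in adult *w1118* hosts, collected 8 to 10 days after transplantation, and N-T3 was the fourth, collected after 6 to 8 days, with masses from 25 hosts pooled per replicate. The allograft masses were not sorted, so the stage and the sort cannot be told apart, and host cells can be among the RNA sources. No library without NΔecd was used here. Since the clones were random, the driver limits the tumour to no single lineage.

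Wingless (Wg) is a secreted Wnt ligand that binds Frizzled receptors together with Arrow. Binding stops the Axin complex from degrading Armadillo, the fly β-catenin, which then enters the nucleus and acts with the TCF factor Pangolin. The pathway also restrains itself: in the wing disc it induces *Notum*, *nkd* and *fz3*, whose products limit the signal. In the larval brain, *wg* is expressed in restricted domains such as the tips of the optic lobe.

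The deposited tables give for each feature a base mean, the authors' mean normalized count over the 6 libraries of a pair of stages, and no value per library. From the 3 base means of a gene, the mean of each stage was solved after the tables were brought to one scale. Apart from a single factor per table, this takes the authors' normalization to weigh the stages alike in every pair, which was not tested. No replicate spread can be had from these values, so that no SD, interval or test is given, the depth is unknown, and every difference below describes group means. A solved mean below 5% of the gene's largest base mean, or below 3 normalized counts, was treated as not resolved; the mean was then set to that limit and the fold is a bound. A gene was called past 2-fold where the ratio of group means exceeded 2 in either direction.

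Compared with N-FACS, 4 of the 9 listed genes (*Wnt10*, *Wnt4*, *fz* and *nkd*) were past 2-fold lower in N-T0 and 0 were past 2-fold higher. Among 9619 features with a ratio, 13.9% were past 2-fold lower and 14.6% past 2-fold higher. In N-T3 against N-FACS, 7 of the 9 were past 2-fold lower, all except *fz2* and *arm*, and 0 were higher, where 14.7% of 9608 features were lower and 13.6% higher. Between the allografts, 4 of the 9 (*Notum*, *Wnt10*, *fz3* and *wg*) were past 2-fold lower in N-T3 than in N-T0 and 0 were higher, where 6.36% of 9493 features were lower and 2.01% higher. The median log2 ratio of the 9 genes was -0.45 in N-T0 against N-FACS, -1.97 in N-T3 against N-FACS and -0.62 in N-T3 against N-T0. Over all features these medians were 0.006, -0.03 and -0.02. The genes were picked with such differences in view, so nothing is drawn from the counts about the pathway against other genes. These 3 comparisons also share their libraries in pairs and are not independent of each other.

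**Figure D1:**
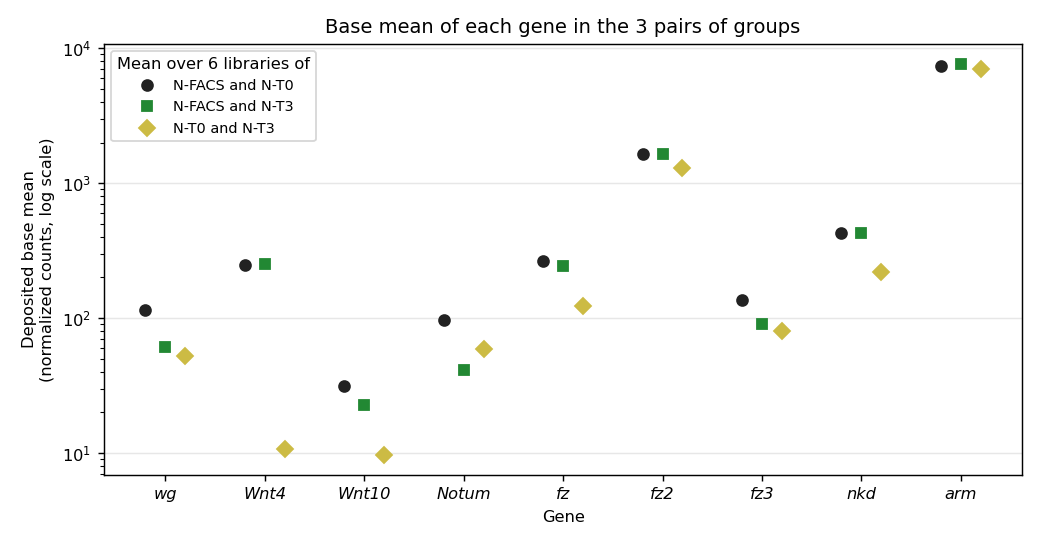
Deposited base mean (normalized counts, log scale) of the 9 listed genes in each pair of stages; each marker is the mean over 6 libraries, and no error can be shown. For *wg* and *Notum* the pair that includes both N-FACS and N-T0 is the highest, at 114.4 and 96.7, while for *Wnt4* both pairs with N-FACS lie near 250 and the pair of allografts at 10.7.

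Both *wg* and *Notum* were within 2-fold between the sorted primary cells and the first allograft and were near or below the limit of resolution in the fourth. For *wg* the base mean was 114.4 over N-FACS and N-T0, 61.3 over N-FACS and N-T3 and 52.0 over N-T0 and N-T3. The pair without N-T3 was thus the highest, and both pairs with N-T3 were lower. The solved mean was 119.5 normalized counts in N-FACS and 109.2 in N-T0, a log2 ratio of -0.13. In N-T3 it came out below 0 and was set to the limit of 5.72. The *wg* level in N-T3 was therefore at least 20.9-fold lower than in N-FACS and at least 19.1-fold lower than in N-T0. On the log2 scale these bounds were -4.39 and -4.26, and with a limit at 10% of the largest base mean they were -3.39 and -3.26. With unresolved means at their limits, only 9 of the 9493 features had a lower ratio of N-T3 to N-T0. The ratio of *wg* is itself such a bound, so this rank depends on the limits and is a description.

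*Notum* encodes a secreted carboxylesterase that removes the palmitoleate group of Wnt proteins and so switches them off outside the cell. Its base means were 96.7 over N-FACS and N-T0, 41.3 over N-FACS and N-T3 and 59.3 over N-T0 and N-T3. The solved means were 74.8 normalized counts in N-FACS, 118.5 in N-T0 and 5.09 in N-T3. The N-T0 mean was 1.58-fold higher than that of N-FACS, which is within 2-fold. The N-T3 mean lay just above its limit of 4.83 and was 14.7-fold lower than in N-FACS and 23.3-fold lower than in N-T0. These log2 ratios of -3.88 and -4.54 were smaller in size, at -2.46 and -3.33, when the tables were scaled from marker genes. That scaling took neuron markers as equal in both allografts and hemocyte markers as absent from N-FACS. On the main scale, 5 of 8 hemocyte markers were resolved in N-FACS. In N-T3 against N-T0, with unresolved means at their limits, 3 features had a lower ratio than *Notum*. These were *Mal-A1*, *CG13947* and *betaTry*, named after their values were seen. *Mal-A1* (a maltase) and *betaTry* (a trypsin) belong to digestive enzyme families, and they had 93.2 and 212.0 normalized counts in N-T0, with means below their limits in N-FACS. *CG13947* likewise had 192.4 normalized counts in N-T0 and was below its limit in N-FACS. Both *Notum* and *wg* were resolved in the sorted N-FACS cells. Which cells gave their RNA in the unsorted allograft masses was not tested.

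The same shape was seen in *fz3*, a Frizzled family receptor that Wg induces in the wing disc and that attenuates the signal there. Its base means of 135.0, 90.8 and 79.6, in the same order of pairs, gave solved means of 140.0 normalized counts in N-FACS, 130.1 in N-T0 and 35.7 in N-T3. The N-T3 mean was 3.92-fold lower than in N-FACS and 3.65-fold lower than in N-T0, and all 3 means were well above the limit. A level within 2-fold between N-FACS and N-T0, with N-T3 past 2-fold below both, was thus found in 3 of the 9 genes (*Notum*, *fz3* and *wg*). Over all 9480 features with the needed ratios it was found in 97, or 1.02%. This shape was defined after the values were seen, and the share is a description.

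*Wnt4* encodes a Wnt ligand known from the visual system for guiding ventral photoreceptor axons, and its main step lay between N-FACS and N-T0 instead. Base means were 249.3 and 251.4 in the pairs that hold N-FACS and 10.7 in the pair of allografts. Solved means were 481.3 normalized counts in N-FACS and 17.3 in N-T0, which was 27.8-fold lower. In N-T3 the mean of 5.04 lay below the limit of 12.5, so that against N-FACS it was at least 38.6-fold lower at this limit and scaling, a log2 ratio of -5.27 that ran from -6.58 to -4.27 over the other limits and scalings. No direction can be given for *Wnt4* from N-T0 to N-T3: the log2 ratio at the limit was -0.47, and it ran from -1.78 with a limit at 2% of the largest base mean to 0.64 with scaling by the sum of base means. Neuron markers were lower at the same step: all 6 of the neuron list were past 2-fold lower in both allografts than in N-FACS, and their summed mean, with unresolved genes at their limits, was 12148 normalized counts in N-FACS, 1145 in N-T0 and 1415 in N-T3. *Syt1*, *brp*, *cpx* and *nSyb*, synaptic genes, were not resolved in either allograft. The part of the neurons in the *Wnt4* difference was not tested, and in bulk samples fewer cells of a type and less RNA per cell cannot be told apart.

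*Wnt10* encodes a further Wnt ligand and had the smallest base means of the listed genes. Its base means were 31.1, 22.5 and 9.63, and the solved means were 42.9 normalized counts in N-FACS, 19.4 in N-T0 and below the limit of 3.00 in N-T3. N-T0 was 2.22-fold lower than N-FACS. N-T3 was at least 14.3-fold lower than N-FACS (log2 ratio -3.84) and at least 6.45-fold lower than N-T0 (-2.69). *Wnt10* was thus the one gene of the set past 2-fold lower in each of the 3 comparisons, although with the limit raised to at least 10 normalized counts its log2 ratio was -2.10 in N-T3 against N-FACS and -0.95, within 2-fold, in N-T3 against N-T0.

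In the Ensembl annotation of BDGP6.54, which is not the authors' build, the 4 Wnt genes of the set lie side by side on chromosome 2L within 122.1 kb. *Wnt4* is on the minus strand (2L, 7255419 to 7277171), and *wg* (7307159 to 7316265), *Wnt6* (7333714 to 7352542) and *Wnt10* (7363379 to 7377528) are on the plus strand. The gap from *Wnt4* to *wg* is 29987 bp and holds 0 other genes. From *wg* to *Wnt6* the gap is 17.4 kb with 1 gene, *lncRNA:CR45304*, and from *Wnt6* to *Wnt10* it is 10.8 kb with 0 genes. These neighbours did not share a profile over the stages: N-T0 held 0.914 of the N-FACS level of *wg* but 0.0359 of that of *Wnt4*. In N-T3 all 3 listed Wnt genes of the cluster were below their limits. Exons of *Wnt10* overlap those of an antisense RNA by 79 bp on the opposite strand, and whether strand was used in the counting is not given in the sources used here.

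The other genes lie elsewhere: *Notum* (3L, 16023480 to 16032752, plus strand), *fz* (3L, 14274343 to 14368639, plus), *nkd* (3L, 19003741 to 19045449, minus), *fz2* (3L, 19140975 to 19235373, minus), *fz3* (X, 769945 to 784222, plus) and *arm* (X, 1891401 to 1900646, minus). Exons of *arm* overlap those of *mRpL16* by 82 bp on the opposite strand. *Notum* shares 148 bp of exon with *mir-4941* and a pair of small transcripts on its own strand.

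**Figure D2:**
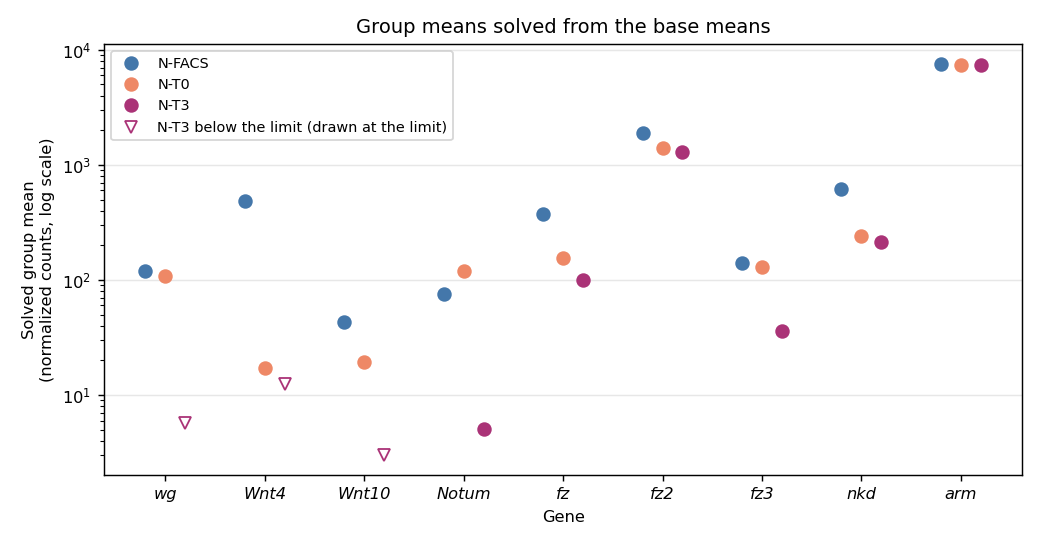
Group means solved from the base means (normalized counts, log scale) of the 9 listed genes in N-FACS, N-T0 and N-T3; open triangles stand at the limit of resolution for means below it, and no replicate error can be shown. *wg*, *Notum* and *fz3* have N-FACS and N-T0 close together with N-T3 below, *Wnt4*, *fz* and *nkd* have their main step between N-FACS and N-T0, and *fz2* and *arm* differ by less than 2-fold across the stages.

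The receptor genes *fz* and *fz2* differed from each other. *fz* encodes the founding Frizzled receptor, which serves both Wg signalling and planar polarity. Its base means were 263.0, 244.2 and 121.9, and its solved means were 372.2 normalized counts in N-FACS, 153.8 in N-T0 and 100.2 in N-T3. N-T0 was 2.42-fold lower than N-FACS and N-T3 3.71-fold lower, while N-T3 was 1.54-fold lower than N-T0. *fz2* encodes the high-affinity Wg receptor, which Wg represses in the wing disc. Its base means were 1649, 1650 and 1288, and the solved means of 1902, 1395 and 1289 normalized counts stayed within 2-fold. The log2 ratios of *fz2* were -0.45 in N-T0 and -0.56 in N-T3 against N-FACS, and -0.11 in N-T3 against N-T0, the last with the opposite sign under at least 1 other scaling of the tables.

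*nkd* encodes a Dishevelled-binding feedback antagonist, and its main step lay between N-FACS and N-T0. Base means of 426.5, 426.7 and 218.9 gave solved means of 611 normalized counts in N-FACS, 241.8 in N-T0 and 214.3 in N-T3. The levels in N-T0 and N-T3 were 2.53-fold and 2.85-fold lower than in N-FACS. Between the allografts the log2 ratio was -0.17, and its sign also turned with the scaling. The feedback genes thus differed among themselves in when they were lower: *Notum* and *fz3* were past 2-fold lower in N-T3 against N-T0, and *nkd* was not.

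*arm*, which encodes the fly β-catenin, was the most abundant gene of the set and the one that differed least. It had base means of 7447, 7698 and 7012 and solved means of 7589 normalized counts in N-FACS, 7305 in N-T0 and 7305 in N-T3. The log2 ratios to N-FACS were -0.05 in N-T0 and -0.06 in N-T3, with signs that turned with the scaling. Armadillo is regulated mainly through its protein's stability, which RNA does not report.

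Across the stages, the largest log2 difference between any pair of group means was 5.27 for *Wnt4*, 4.54 for *Notum*, 4.39 for *wg* and 3.84 for *Wnt10*, with those of *wg*, *Wnt4* and *Wnt10* being bounds. It was 1.97 for *fz3*, 1.89 for *fz*, 1.51 for *nkd*, 0.56 for *fz2* and 0.06 for *arm*. Within the set, the 3 listed ligands and *Notum* therefore covered wider ranges than the receptors and intracellular genes. Without values per library, neighbours in this order cannot be told from the replicate spread.

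Levels of different genes were compared as normalized counts per kb of exon. In N-FACS the order was *arm* (2129), *fz2* (256), *Wnt4* (142.9), *nkd* (120.7), *fz* (97.5), *wg* (40.9), *fz3* (37.6), *Notum* (19.7) and *Wnt10* (18.1), all per kb. *Wnt4* was thus the highest of the 3 listed ligands of the set in the sorted primary cells. In N-T0, by the same measure, *wg* was at 37.4, *fz3* at 34.9, *Notum* at 31.3, *Wnt10* at 8.15 and *Wnt4* at 5.14, so that *wg* was the highest of the listed ligands of the set. In N-T3 the 3 ligands had limits of 1.96 per kb (*wg*), 3.70 (*Wnt4*) and 1.26 (*Wnt10*), and *Notum* was at 1.34. The receptors were still at 174 (*fz2*), 26.3 (*fz*) and 9.57 (*fz3*) per kb in N-T3, and *arm* was at 2050.

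**Figure D3:**
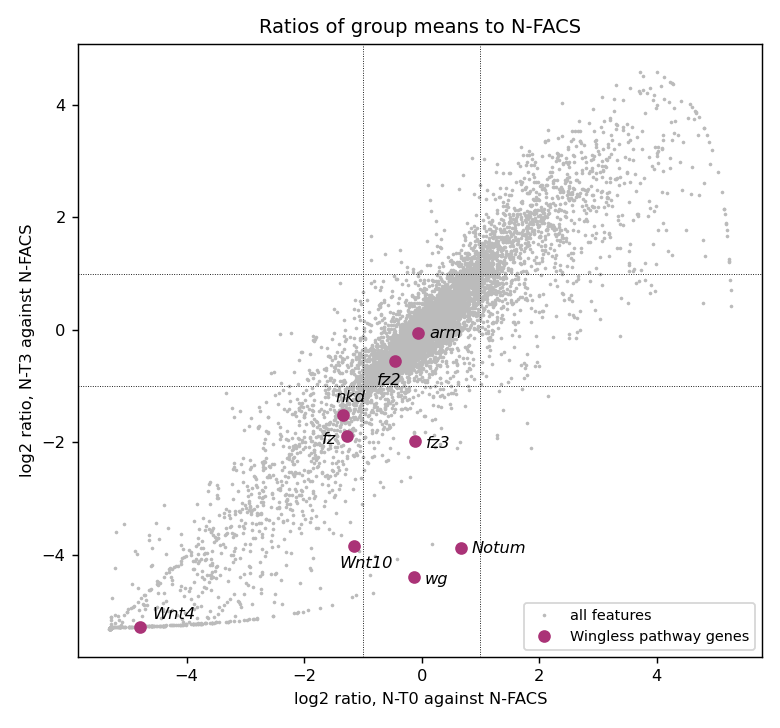
Log2 ratio of N-T3 to N-FACS (vertical) against that of N-T0 to N-FACS (horizontal) for all features with both ratios (grey) and the 9 listed genes (purple); both axes share N-FACS, dotted lines mark 2-fold, and ratios against an unresolved mean are drawn at their bound. *wg*, *fz3* and *Notum* lie near 0 to 0.66 horizontally and between -4.39 and -1.97 vertically, below the main cloud of features.

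The genes of the rest of the pathway were taken from a list of 29, of which 28 were listed in all 3 tables and *wntD* was not. In N-T0 against N-FACS 3 were past 2-fold higher and 3 lower, where 14.6% of all features were higher and 13.9% lower. The 28 genes had a median log2 ratio of -0.28. In N-T3 against N-FACS 2 were higher and 3 lower, with a median of -0.35, where 13.6% of all features were higher and 14.7% lower. Between N-T3 and N-T0, with *Drl-2* at its limit, 0 of 28 were past 2-fold in either direction. Of all features, 6.36% were lower and 2.01% higher. Log2 ratios of the 28 genes ran from -0.72 (*wls*) to 0.48 (*pan*), with a median of -0.02. That of *Drl-2*, -0.47, is a bound, so its ratio may be lower and past 2-fold.

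Another Wnt ligand, *Wnt2*, went the other way from *wg*, *Wnt4* and *Wnt10*. It had 45.3 normalized counts in N-FACS, 132.3 in N-T0 and 130.4 in N-T3, which was 2.92-fold and 2.88-fold higher than in N-FACS. *Wnt5*, a ligand of Ryk family receptors named after its values were seen, had 3262, 2275 and 2143 in the same order and was within 2-fold. *Drl-2*, one of those receptor genes, had a profile close to that of *Wnt4*, with 409 normalized counts in N-FACS, 14.7 in N-T0 and a mean below the limit of 10.6 in N-T3. N-T0 was 27.9-fold lower and N-T3 at least 38.6-fold lower for *Drl-2*.

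Genes for making and receiving Wg were present at every stage. *por*, the acyltransferase that adds the palmitoleate, had 396.3, 492.9 and 419.3 normalized counts in N-FACS, N-T0 and N-T3. *wls*, which carries Wnts to the cell surface, had 1934, 1471 and 890.7, so that N-T3 was 2.17-fold lower than N-FACS. *arr*, the co-receptor, had 823.7, 674.1 and 770.3. Of the glypicans that hold Wg at the cell surface, *dally* had 337.7, 166.1 and 133.7 and *dlp* had 714.5, 1563 and 1395, in opposite directions. *dally* was 2.03-fold lower in N-T0 and 2.53-fold lower in N-T3, and *dlp* was 2.19-fold higher in N-T0 and 1.95-fold higher in N-T3.

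Inside the cell, *dsh*, which relays the signal, had 2461, 1989 and 1900 normalized counts in N-FACS, N-T0 and N-T3. *Axn*, the scaffold of the destruction complex, had 1668, 1333 and 1309. *sgg*, its GSK-3 kinase, was 2.12-fold lower in N-T0, with 3454, 1630 and 1779. *pan*, the TCF factor, had 2226, 1847 and 2574, and *ebd2*, a cofactor of Armadillo and TCF, was higher in both allografts, with 187.2, 396.7 and 409.1. Of the 4 planar polarity genes, *stan*, *Vang* and *pk* stayed within 2-fold at all stages. *dgo* was 2.93-fold higher in N-T0 and 3.24-fold higher in N-T3, from 18.9 normalized counts in N-FACS to 55.5 and 61.3.

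**Figure D4:**
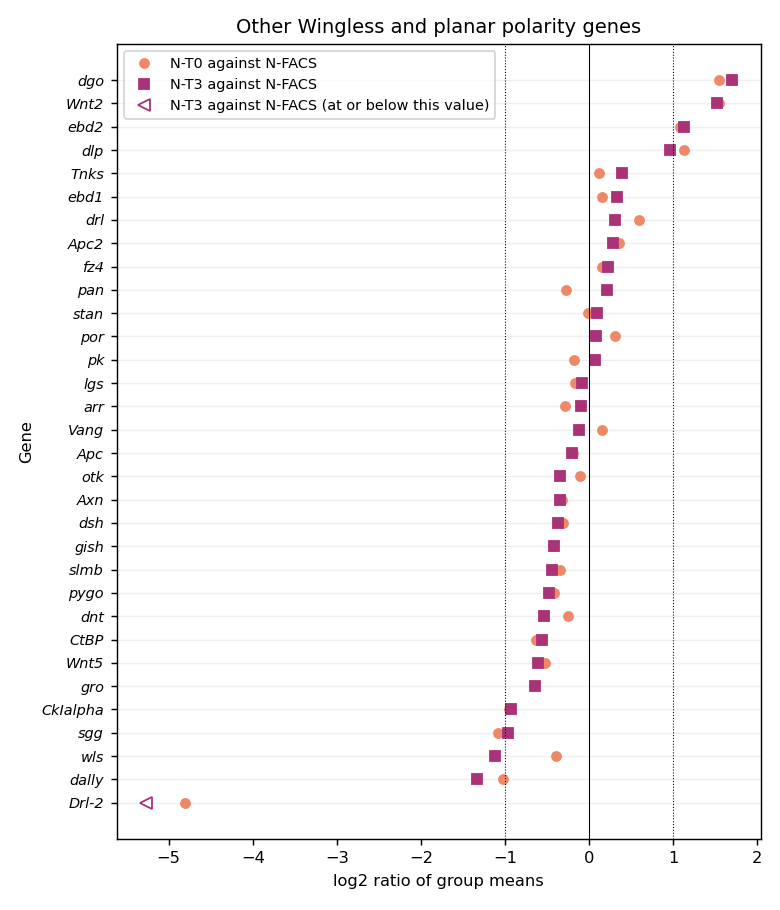
Log2 ratio to N-FACS of the 28 other Wingless pathway genes and 4 planar polarity genes listed in all 3 tables, in N-T0 (circles) and N-T3 (squares); dotted lines mark 2-fold, the open triangle is a bound, and no replicate error can be shown. *Wnt2*, *ebd2* and *dgo* lie past 2-fold higher in both allografts and *Drl-2* and *dally* past 2-fold lower, while most of the other genes lie between the lines.

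The labelled tissue was checked with marker lists, whose values can be read beside each result above. The neuroblast list had summed means of 64573 normalized counts in N-FACS, 72118 in N-T0 and 73746 in N-T3, with 5 of 6 genes within 2-fold in all comparisons and *ase* lower in each. Of these sums *mira* alone made up 40016, 52368 and 50755. In N-T0 against N-FACS *mira*, *klu* and *insc* were higher and *wor*, *dpn* and *ase* lower. Of 6 glia markers, 5 were past 2-fold lower in both allografts than in N-FACS, and the sum went from 5853 to 5118 and 3455, carried largely by *nrv2*, the sixth. The defining glial gene *repo* was not resolved in either allograft. Host hemocyte and fat body markers were mostly higher in the allografts. The hemocyte sum was 971 in N-FACS, with 603.3 from *crq*, 2932 in N-T0 and 1819 in N-T3. In N-T0, 6 of 8 hemocyte genes were past 2-fold higher, and *NimC1*, *eater* and *He* were not resolved in N-FACS. In N-T3 against N-FACS, 5 of these were higher and *Pxn* was lower. The fat body sum was 233.7, 2313 and 520.3, with 4 of 7 genes listed, all 4 higher in N-T0 than in N-FACS and all 4 past 2-fold lower in N-T3 than in N-T0. *Lsp1alpha*, *Lsp2* and *Fbp1* were not listed in all 3 tables. The part of host cells in the differences between N-T3 and N-T0 was not tested. Muscle markers summed to 142.5, 117.0 and 97.6, of which *sls* alone made up 114.1 in N-FACS and 49.3 in N-T0. In N-T0 against N-FACS 3 of the 6 (*Mlc2*, *Tm2* and *up*) were past 2-fold higher and *sls* was lower. The N-FACS means of *Tm2* (3.07) and *up* (3.24) lay just above their limit of 3.00. Trachea markers summed to 120.3, 102.4 and 86.0, of which *trh* made up 77.0 in N-FACS and 13.4 in N-T0. *serp* and *verm* were past 2-fold higher in N-T0 and *btl* and *trh* lower, with *btl* at 3.56 in N-T0, near its limit of 3.00. Between N-T3 and N-T0, 0 of 6 muscle and 0 of 4 trachea markers were past 2-fold. Of the follicle and eggshell list, 2 of 5 genes were listed in all 3 tables, with sums of 17.5, 55.1 and 93.2. *Cp15* made up 10.5, 52.0 and 88.0 of these. *Vml* had 6.92 normalized counts in N-FACS and 3.07 in N-T0, past 2-fold lower but near its limit of 3.00.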

How the data were processed

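RNA from 9 libraries was made into poly(A) libraries and sequenced by the authors, who aligned reads with STAR to BDGP6.32, counted them with featureCounts and compared stages in pairs with DESeq2. Each of the 3 deposited tables holds a base mean, a score in the sense that the authors divided counts by size factors and averaged them over 6 libraries. The other 5 columns of each table hold the authors' own comparison (fold change, standard error, statistic, p-values) and were not used. No values per library were used, so depth and precision are unknown. In 2 of the tables lines are quoted again, and these were read in 2 passes.

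Python 3.11.15, numpy 2.4.6, pandas 2.3.3 and matplotlib 3.10.9 were used. Tables were scaled by the median ratio over the 7283 features whose base mean reached 30 in all 3 (1.03 for the N-T3 and N-FACS table, 0.96 for the N-T3 and N-T0 table). Group means were then solved. Among these features 3 came out below 0, and the lowest, at -0.83% of its largest base mean, was that of *wg* in N-T3. The method was tested on simulated data in which N-T0 had the N-FACS levels and only a subset of features was changed in N-T3. This does not cover the many features that differed between N-FACS and both allografts. Background counts used 9620 features that all tables list and whose base mean reached 10 in at least 1. No pseudocount was added.

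The members and the 10 other lists (other Wingless pathway, planar polarity, neuroblast, neuron, glia, hemocyte, fat body, muscle, trachea, follicle and eggshell) were chosen with earlier results of these data known. Genes named are all members, genes of the first pair of lists past 2-fold in at least 1 comparison, *arr*, *dsh*, *Axn*, *sgg*, *pan*, *wls* and *por*, and the 3 genes most like *Wnt4*, the member of widest spread; others were named after their values were seen. Coordinates come from the Ensembl annotation of BDGP6.54, matched by gene identifier for 13166 of 13215 features. Alternatives were other scalings, limits, filters and a pseudocount.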

Additional observations from a re-analysis of the deposited data

How the results depend on the processing

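Of 27 log2 ratios of the 9 genes, 25 kept their side of 2-fold under every alternative scaling, limit and pseudocount, and 0 reversed a call. *Wnt10* in N-T3 against N-T0 went to -0.95 with a limit of at least 10 normalized counts, because the bound itself moves. *Wnt4* in N-T3 against N-T0 went to -1.78 with a limit at 2% of the largest base mean. At that limit its N-T3 mean of 5.04 was just resolved, so this ratio is not a bound. *Wnt4* in N-T3 against N-T0 also turned sign, to 0.03 with no scaling and 0.64 with scaling by the sum. For *wg*, N-T3 against N-T0 ranged from -5.19 to -3.26, for *Notum* from -4.57 to -3.33 and for *fz3* from -1.87 to -1.52. Counts of the 9 genes stayed within 1.5 times in 60 of 60 alternatives. Those past 2-fold higher were 0 in every setting, and the filters on base mean removed none of the 9 genes. Counts over all features stayed within 1.5 times in 56 of 66. In N-T3 against N-T0, the count past 2-fold higher went from 191 to 319 with no scaling, 406 with scaling by the sum, 117 with a limit of at least 10 normalized counts, 308 with no filter and 86 at a base mean of at least 30. The count lower went from 604 to 371 with scaling by the sum and 359 at a base mean of at least 30. Against N-FACS, scaling from marker genes gave 2217 features higher and 1183 lower in N-T0, and 2196 higher and 1207 lower in N-T3, and a base mean of at least 30 gave 937 higher in N-T0. With no scaling, N-T0 had 1032 higher and 1636 lower, and N-T3 against N-T0 had 319 higher and 480 lower. Scaling by the sum gave 1554 higher and 1259 lower in N-T3 against N-FACS. These scalings moved the median log2 ratio of all features to 0.29 and 0.30 (markers, N-T0 and N-T3 against N-FACS), -0.21 and -0.14 (no scaling), and 0.17 (sum, N-T3 against N-T0). Restriction to features with a gene symbol, chosen after seeing the data, left 163 higher and 571 lower in N-T3 against N-T0. No paired analysis was possible because the deposited columns used are means over libraries and carry no replicate numbers, and leaving out single replicates was not run for the same reason. Low genes such as *Wnt10* and *Notum* in N-T3 are limited by the resolution of the solved means.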

Other observations

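Among 7243 candidate features, the genes whose stage profile was most like that of *Wnt4*, by Euclidean distance over the log2 ratios of N-T0 and of N-T3 to N-FACS, were *fne*, *Cow* and *mmd*. *fne*, an ELAV family RNA-binding protein gene, had 4767 normalized counts in N-FACS, 181.5 in N-T0 and 152.9 in N-T3, at a distance of 0.32. *Cow*, which encodes a secreted proteoglycan that binds Wg, had 1122, 42.3 and 37.8, at a distance of 0.39. *mmd*, an ADAM metalloprotease gene, had 1218, 32.9 and 36.5, at 0.46. The distance rests on 3 group means per gene, with the bound used for *Wnt4* in N-T3, and is a description.

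The genes most like *Notum*, a comparison chosen after its values were seen, were *fd59A*, *bru1* and *Octbeta3R*. *fd59A*, a forkhead factor gene, had 229.5 normalized counts in N-FACS, 260.2 in N-T0 and 16.5 in N-T3, at a distance of 0.49. *bru1*, an RNA-binding protein gene, had 208.7, 163.0 and 32.6, at 1.57, and *Octbeta3R*, an octopamine receptor gene, had 128.4, 69.6 and 6.30, at 1.62. The presence of *fd59A* in the sorted cells and in the first allograft follows from its choice by likeness to *Notum*.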
